A study of Mus musculus with 10 samples.

Results

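The genes described here are 35 mouse genes of the endoplasmic reticulum (ER) that fold secreted proteins, sense misfolded ones or dispose of them. They were picked by gene symbol with earlier results of these data known, by a rule that uses no measured value. The deposited table lists 34 of them among its 29268 genes, and all 34 were among the 16993 genes tested. *Ern2*, the sensor gene of the gut epithelium, is not in the table and was not analysed here. The study sequenced uterine RNA of 5 HSD17B1TG and 5 WT females on the FVB/N background, all 4 months old and each with its own library, to compare the uterus before adenomyotic lesions appear. HSD17B1TG mice come from a heterozygous line with human HSD17B1 cDNA, the enzyme that reduces estrone to estradiol, behind a CMV-enhanced chicken beta actin promoter that is active in most tissues. They do not cycle, whereas the WT mice were taken at random phases of the estrous cycle, so genotype and loss of the cycle cannot be told apart. The transgene is human and is not counted by the mouse annotation, so the table gives no direct check of it. The mice are called TG1 to TG5 and WT1 to WT5, and the numbers only name them.

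Proteins that enter the ER are bound by BiP (*Hspa5*) and its partners, receive disulfide bonds from protein disulfide isomerases, and, if glycosylated, pass through the lectin chaperones calreticulin and calnexin. When unfolded proteins accumulate, the sensors IRE1 (*Ern1*), PERK (*Eif2ak3*) and ATF6 act through XBP1, ATF4 and cleaved ATF6 to raise chaperones, degradation factors or stress genes. Secretory tissues such as uterine epithelium and plasma cells make much ER protein. Chaperone promoters are known for the ER stress response element (ERSE), which NF-Y binds at CCAAT and ATF6 or XBP1 at CCACG.

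The promoter sequences show which of these genes share that element, and they come from the RefSeq promoter table for GRCm38.p6, the build of the deposited coordinates. A window of 250 bases before to 50 after a RefSeq start was given for 30 of the 34 genes, in 33 windows, and was not given for *Atf6*, *Derl1*, *Hyou1* and *Manf*. ERSE was searched on both strands as CCAAT and CCACG with 9 bases between them. It was found in the windows of 9 genes and in 0.119% of all 32851 windows. The matches of the 9 genes are shown in the direction of the motif, with the letters searched in capitals. *Hsp90b1* held a pair of them, and 9 of the 10 matches lay upstream of the gene as the deposited table bounds it, the exception being that of *Hspa5*.
Calr, chr8:84847075-84847093: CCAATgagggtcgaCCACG
Canx, chr11:50325800-50325818: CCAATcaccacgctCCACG
Creld2, chr15:88819520-88819538: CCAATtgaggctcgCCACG
Derl3, chr10:75893242-75893260: CCAATggggaagtcCCACG
Dnajc3, chr14:118937827-118937845: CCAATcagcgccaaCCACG
Hsp90b1, chr10:86705638-86705656: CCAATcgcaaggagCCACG
Hsp90b1, chr10:86705533-86705551: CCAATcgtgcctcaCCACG
Hspa5, chr2:34772025-34772043: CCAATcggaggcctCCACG
Pdia6, chr12:17266491-17266509: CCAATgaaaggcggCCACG
Syvn1, chr19:6046532-6046550: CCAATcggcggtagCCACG

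ERSE-II, which joins CCAAT on the opposite strand to CCACG at another spacing, was searched as ATTGG and CCACG with 1 base between them and was found in 2 of the genes and in 0.0365% of all windows. The core of the XBP1 element (UPRE), TGACGTGG, was found in 1 gene and in 0.676% of windows. The element bound by ATF4 with C/EBP factors (CARE), TGATGNAA, was found in 3 genes and in 3.97% of windows. All were searched on both strands. The core of the XBP1 element holds CCACG on its other strand and can overlap an ERSE, but no matches overlapped here. *Herpud1*, whose product serves ER-associated degradation, held both ERSE-II and CARE. A match describes the letters only, and no match says only that these letters are not in the window.
Dnajb11, ERSE-II, chr16:22857852-22857862: ATTGGcCCACG
Herpud1, ERSE-II, chr8:94386377-94386387: ATTGGgCCACG
Herpud1, CARE, chr8:94386317-94386324: TGATGcAA
Trib3, CARE, chr2:152344039-152344046: TGATGtAA
Txndc5, CARE, chr13:38528922-38528929: TGATGaAA
Txndc5, UPRE core, chr13:38528045-38528052: TGACGTGG

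Longer stretches are given for *Txndc5*, *Hsp90b1* and *Derl3*, the genes with a motif and the smallest p-values whose match lies outside the gene of the table, apart from *Trib3*, whose match is given above. They are written 5′ to 3′ on the strand of the gene and end at the RefSeq start or the deposited gene boundary, with the motif letters in capitals. The *Hsp90b1* stretch shows its ERSE pair in opposite directions.
Txndc5, chr13:38528825-38529074, minus strand: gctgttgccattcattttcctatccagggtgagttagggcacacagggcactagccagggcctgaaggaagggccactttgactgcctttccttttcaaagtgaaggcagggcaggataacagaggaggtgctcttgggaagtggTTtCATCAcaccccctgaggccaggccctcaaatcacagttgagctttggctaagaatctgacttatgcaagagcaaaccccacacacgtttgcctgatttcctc
Hsp90b1, chr10:86705510-86705694, minus strand: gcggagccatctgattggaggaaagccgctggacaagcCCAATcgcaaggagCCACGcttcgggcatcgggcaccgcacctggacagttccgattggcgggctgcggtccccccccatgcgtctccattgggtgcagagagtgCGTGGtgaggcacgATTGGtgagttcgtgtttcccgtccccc
Derl3, chr10:75893148-75893397, plus strand: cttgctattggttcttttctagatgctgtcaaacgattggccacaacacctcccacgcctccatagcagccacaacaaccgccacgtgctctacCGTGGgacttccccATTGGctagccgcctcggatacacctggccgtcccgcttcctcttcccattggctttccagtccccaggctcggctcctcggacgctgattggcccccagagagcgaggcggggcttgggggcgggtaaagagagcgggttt

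Total counts on genes ranged from 14817228 to 23271988 per mouse. Counts of the 34 genes in a mouse ranged from 16 for *Trib3* to 31277 for *Calr*, and *Trib3* and *Derl3*, with at most 81 and 290 counts, had the least depth. No pair of libraries of a genotype was alike within sampling noise. Levels are given as the deposited FPKM, a count per gene length whose depth term is the authors' size factor. Summed FPKM of 10 epithelial markers ranged from 701 to 3234 in HSD17B1TG and from 507 to 1697 in WT (exact permutation test, two-sided, p = 0.0556), and that of 9 stromal markers from 525 to 2114 against 1866 to 2260. The shares of mitochondrial counts were 1.94% to 7.57% in HSD17B1TG and 2.58% to 3.37% in WT. Every marker of the epithelium, stroma and smooth muscle was detected in every mouse. In whole uterus, fewer cells of a type and less RNA per cell cannot be told apart.

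The difference between HSD17B1TG and WT uterus was tested gene by gene with edgeR's quasi-likelihood test across all 16993 genes. None of the 34 genes was called up or down, where a call needs a mean FPKM over 1 in either genotype and a more than 2-fold difference at an adjusted p under 0.05. Of all genes tested, 2.16% were called up and 2.08% down. At an adjusted p under 0.05 alone, 0 of the 34 genes passed, against 6.16% of all genes, and at an unadjusted p under 0.05 again 0 passed, against 26.1%. The FPKM of the genotypes overlapped for every one of the 34 genes, while they did not overlap for 6.69% of all genes. With HSD17B1TG minus WT as the direction throughout, 18 genes had a positive and 16 a negative log2 fold change. The median was 0.026 beside 0.0021 over all genes, and the range ran from -0.64 for *Derl3* to 0.54 for *Trib3*. DESeq2 also called 0 of the 34.

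The intervals show what sizes of change remain possible. For 30 of the 34 genes (88.2%), the 95% interval of the fold change lay within 2-fold in either direction, and this held for 48.8% of all genes tested. The exceptions were *Sdf2l1*, *Ern1*, *Trib3* and *Derl3*. The narrowest interval among the 34 genes was that of *Derl1*, a channel component of ER-associated degradation, at 0.11 (95% interval -0.17 to 0.39).

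**Figure D1:**
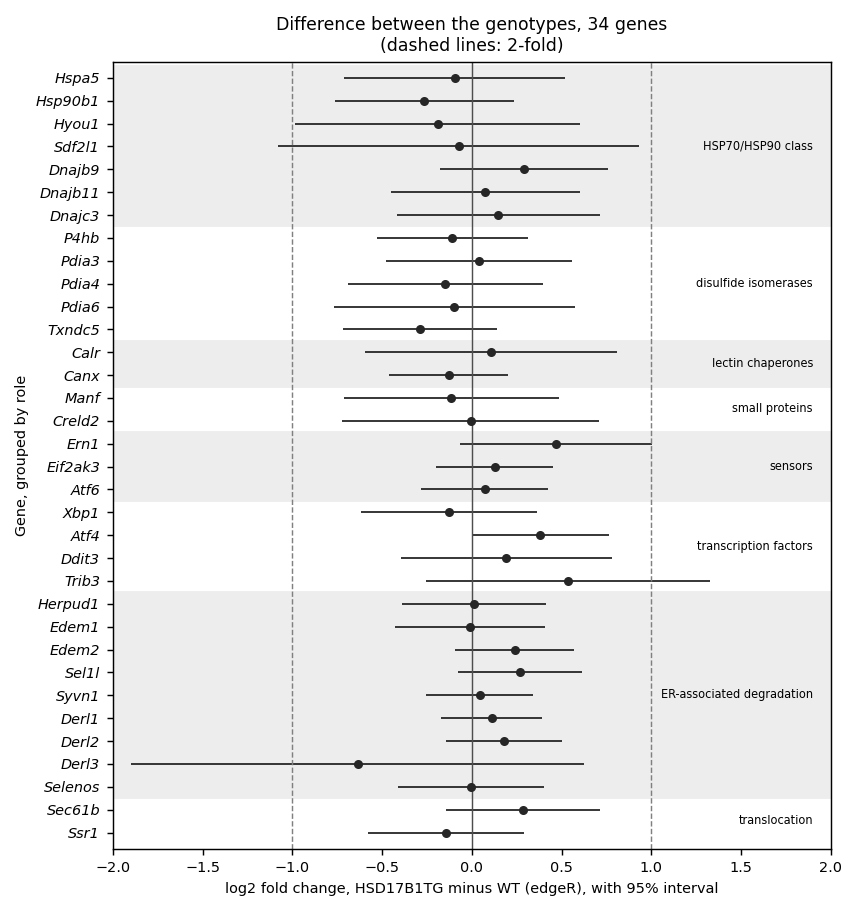
Log2 fold change (x axis, HSD17B1TG minus WT, edgeR) of 34 genes (y axis, grouped by role), with bars for the 95% interval and dashed lines at 2-fold. Every interval crosses 0, and 30 of 34 stay between the dashed lines.

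Among the HSP70 and HSP90 class chaperones and their partners, no gene passed the test. *Hspa5* (ENSMUSG00000026864, chr2:34771970-34777547, plus strand) encodes BiP, the HSP70 of the ER and the usual gauge of ER load. It stood at 167, 281, 328, 136 and 227 FPKM in TG1 to TG5 and at 295, 147, 239, 305 and 228 FPKM in WT1 to WT5. The lowest and the highest of the 10 values were both HSD17B1TG, TG4 and TG3, and the log2 fold change was -0.10 ± 0.28 (SE, 95% interval -0.71 to 0.52, adjusted p = 0.86).

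*Hsp90b1* encodes GRP94, the HSP90 of the ER. Its levels were 125, 167, 209, 83.5 and 141 FPKM in HSD17B1TG and 186, 139, 176, 184 and 184 FPKM in WT. Of the WT mice, 4 lay close together and WT2 below them, and the log2 fold change was -0.26 ± 0.23 (SE, 95% interval -0.76 to 0.23, adjusted p = 0.496). The gene shares bases with 3 other annotated genes, and because the strand setting of the counting is not given, reads there could belong to any of them.

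*Hyou1*, which exchanges the nucleotide of BiP, and *Sdf2l1*, a partner of the BiP J proteins, had the widest spread of the class. *Hyou1* stood at 19.7, 42.0, 47.5, 12.03 and 22.4 FPKM in HSD17B1TG and 47.8, 21.99, 27.4, 37.6 and 28.6 FPKM in WT. *Sdf2l1* stood at 20.1, 60.2, 80.8, 14.4 and 25.98 FPKM in HSD17B1TG and 64.5, 22.5, 42.5, 42.1 and 39.6 FPKM in WT. In both genes TG4 was the lowest mouse and TG1 was below all WT mice, while TG2 and TG3 were above 4 of the 5 WT mice or all of them. The intervals were accordingly wide, with log2 fold changes of -0.19 (95% interval -0.98 to 0.60) and -0.074 (95% interval -1.08 to 0.93).

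The J proteins *Dnajb9*, *Dnajb11* and *Dnajc3*, which deliver clients to BiP or stimulate its ATPase, were at 16.5 to 55.8 FPKM. *Dnajb9*, known as a target of XBP1, stood at 25.0, 28.3, 22.2, 34.6 and 40.2 FPKM in HSD17B1TG and at 24.7, 16.5, 21.3, 32.1 and 28.3 FPKM in WT. It had a log2 fold change of 0.29 ± 0.21 (SE, 95% interval -0.18 to 0.76, adjusted p = 0.425). Its highest mice were TG5 and TG4, although TG4 was the lowest mouse in *Hspa5*. *Dnajb11* and *Dnajc3* had log2 fold changes of 0.075 (95% interval -0.45 to 0.60) and 0.15 (95% interval -0.42 to 0.71).

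The 5 protein disulfide isomerases had WT means of 80.7 to 279 FPKM and log2 fold changes of -0.29 to 0.040, and none passed the test. *P4hb*, which also serves collagen prolyl hydroxylase as its beta subunit, stood at 195, 312, 329.8, 184 and 278 FPKM in HSD17B1TG and at 300.1, 258, 284, 280.1 and 274 FPKM in WT. The 5 WT values spanned a narrow range, whereas the HSD17B1TG values lay on both sides of it, with TG1 and TG4 below and TG2 and TG3 above all WT mice. The means were 259.7 ± 66.9 against 279 ± 15.3 FPKM (SD, n = 5 each). The same mice lay below and above all WT mice in *Pdia3*, the partner of the lectin chaperones, which stood at 174, 322, 347, 160.0 and 264 FPKM in HSD17B1TG and 263, 214, 212, 287 and 252.4 FPKM in WT. *Pdia4* and *Pdia6*, further isomerases, ranged from 51.8 to 166 FPKM over the 10 mice, with TG4 lowest and TG3 highest in both, and had log2 fold changes of -0.15 (95% interval -0.69 to 0.39) and -0.10 (95% interval -0.77 to 0.58).

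*Txndc5*, an isomerase of endothelial and plasma cells among others, was the isomerase with the lowest fold change. It stood at 58.5, 78.5, 87.99, 45.2 and 61.9 FPKM in HSD17B1TG and at 95.9, 81.0, 85.8, 61.4 and 79.5 FPKM in WT, and the log2 fold change was -0.29 ± 0.20 (SE, 95% interval -0.72 to 0.14, adjusted p = 0.381). TG1 and TG4 were below every WT mouse, TG5 was just above the lowest of them, and TG3 was above 4 WT mice. *Txndc5* shares bases with 3 other annotated genes.

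Of the lectin chaperones, *Calr* (ENSMUSG00000003814, chr8:84841850-84846934, minus strand) was the most abundant of the 34 genes per gene length. It stood at 248, 577, 577, 187 and 353 FPKM in HSD17B1TG and at 433, 295, 279, 406 and 384 FPKM in WT. TG2 and TG3 were above every WT mouse and TG1 and TG4 below every WT mouse, and the log2 fold change was 0.11 ± 0.32 (SE, 95% interval -0.60 to 0.81, adjusted p = 0.863). *Canx*, the membrane-bound relative, varied less, from 70.0 to 105 FPKM in HSD17B1TG and from 90.3 to 109.8 FPKM in WT, with a log2 fold change of -0.13 (95% interval -0.46 to 0.20).

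*Manf* and *Creld2* encode small secreted proteins that rise with ER stress. *Creld2* had nearly the same mean in both genotypes, 61.5 ± 27.6 and 61.5 ± 20.5 FPKM (SD, n = 5 each). Its values were 42.2, 77.1, 100.5, 32.0 and 55.6 FPKM in HSD17B1TG and 87.96, 34.4, 51.7, 73.9 and 59.4 FPKM in WT. Within HSD17B1TG the highest mouse had 3.14 times the level of the lowest, although the log2 fold change between the genotypes was -0.0049 (95% interval -0.72 to 0.71). *Manf* stood at 37.3, 54.0, 72.8, 31.0 and 53.2 FPKM in HSD17B1TG and at 70.6, 30.5, 44.3, 66.0 and 56.5 FPKM in WT, and WT2, TG4 and TG1 were the 3 lowest mice in it as in *Creld2*. *Manf* had a log2 fold change of -0.11 (95% interval -0.71 to 0.48) and shares bases with 4 other annotated genes.

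**Figure D2:**
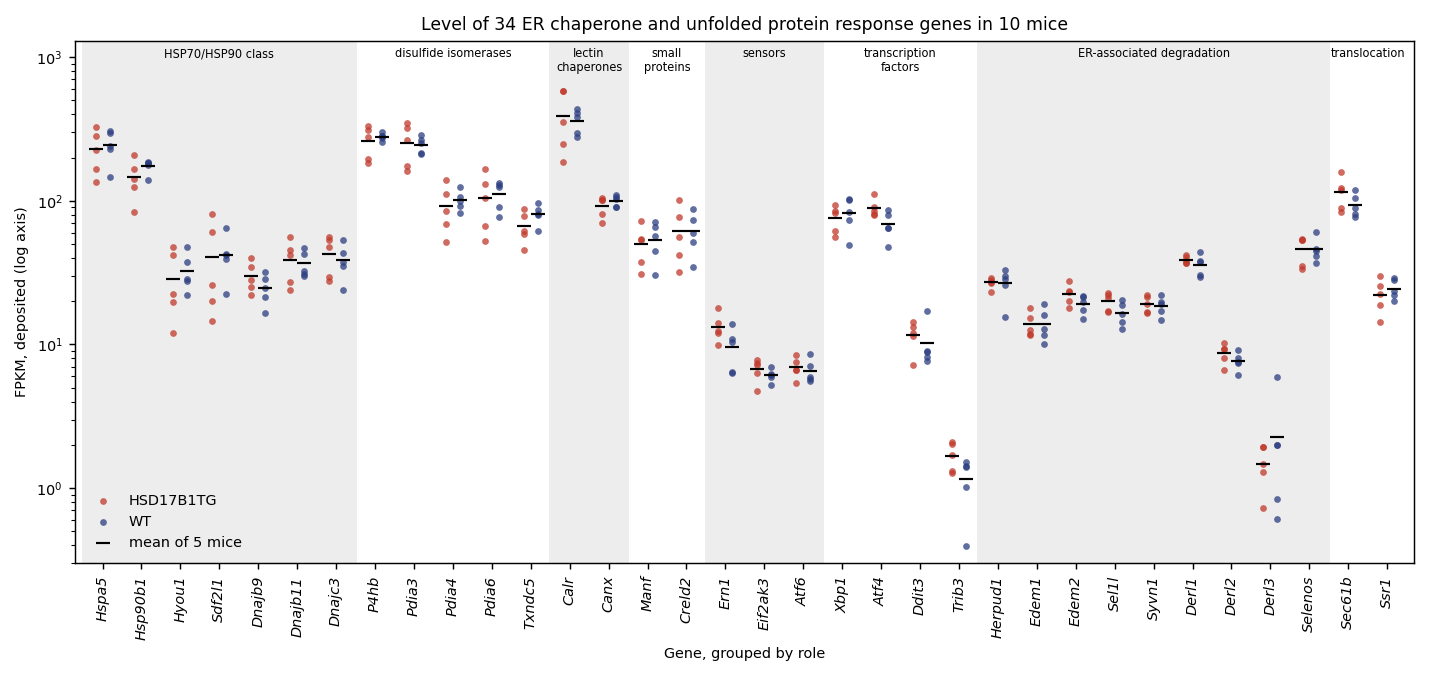
FPKM as deposited (y axis, log scale) of 34 genes (x axis, grouped by role) in 5 HSD17B1TG (red) and 5 WT (blue) mice, with black bars for the mean of 5. The genotypes overlap in every gene, and the spread is wide in *Sdf2l1*, *Hyou1* and *Derl3* and narrow in *Derl1* and *Canx*.

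The 3 sensors in the table had positive log2 fold changes, and none passed the test. *Ern1* encodes IRE1, the kinase and nuclease that splices *Xbp1* mRNA. It stood at 11.9, 18.05, 14.2, 12.4 and 9.87 FPKM in HSD17B1TG and at 13.9, 6.29, 6.38, 10.97 and 10.4 FPKM in WT, where WT2 and WT3 were the 2 lowest mice. The log2 fold change was 0.47 ± 0.24 (SE, 95% interval -0.066 to 1.00, adjusted p = 0.248), and its unadjusted p was 0.0798. *Eif2ak3*, the kinase PERK, and *Atf6*, the membrane-bound factor, were low, at 4.76 to 8.61 FPKM, with log2 fold changes of 0.13 (95% interval -0.20 to 0.45) and 0.073 (95% interval -0.28 to 0.43).

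Among the transcription factors and their effectors, *Atf4* (ENSMUSG00000042406, chr15:80255184-80257541, plus strand) had the smallest p-value of all 34 genes. *Atf4* is translated when eIF2 alpha is phosphorylated, so its mRNA is only part of its control. It stood at 79.0, 85.4, 90.2, 81.0 and 112 FPKM in HSD17B1TG and at 79.8, 64.3, 47.3, 86.7 and 65.1 FPKM in WT. TG3 and TG5 were above every WT mouse and WT2, WT3 and WT5 below every HSD17B1TG mouse. The log2 fold change was 0.38 ± 0.17 (SE, 95% interval -0.0011 to 0.76, adjusted p = 0.193), with an unadjusted p of 0.0505 and 0.0556 in the exact permutation test (two-sided, on log2(FPKM + 1)). Without WT3, whose level was the lowest, the log2 fold change was 0.25, and without WT4 it was 0.48. The call did not change in any of these fits.

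*Trib3*, a pseudokinase induced by ATF4 and CHOP, was the least abundant of the 34 genes in WT. It stood at 1.31, 1.27, 2.03, 2.10 and 1.69 FPKM in HSD17B1TG and at 1.40, 0.396, 1.02, 1.44 and 1.52 FPKM in WT. WT2 was far below the others, and the log2 fold change of 0.54 ± 0.36 (SE, 95% interval -0.26 to 1.33, adjusted p = 0.375) was 0.30 when WT2 was left out. *Ddit3*, which encodes CHOP, stood at 14.4, 13.3, 7.20, 12.02 and 11.4 FPKM in HSD17B1TG and at 8.22, 7.71, 8.90, 9.02 and 17.0 FPKM in WT. WT5 was the highest of the 10 mice and TG3 the lowest, and the log2 fold change was 0.19 (95% interval -0.39 to 0.78). The *Ddit3* locus overlaps a further gene entry of the same name, *Mars* and *Gm4189*, so its counts are uncertain. *Xbp1*, the factor that IRE1 activates by splicing, stood at 55.8 to 93.3 FPKM in HSD17B1TG and 49.0 to 103 FPKM in WT, with a log2 fold change of -0.13 (95% interval -0.61 to 0.36). Gene counts do not separate spliced from unspliced *Xbp1* mRNA.

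The 9 genes of ER-associated degradation, which extract misfolded proteins and pass them to the proteasome, had log2 fold changes of -0.64 to 0.27. *Sel1l* and *Edem2*, an adaptor of the ubiquitin ligase and a mannosidase-like factor, had the highest, 0.27 ± 0.16 (SE, 95% interval -0.078 to 0.61, adjusted p = 0.307) and 0.24 ± 0.15 (SE, 95% interval -0.094 to 0.57, adjusted p = 0.346). *Sel1l* stood at 17.1, 21.1, 22.7, 16.8 and 22.1 FPKM in HSD17B1TG and at 20.3, 12.7, 16.2, 18.9 and 14.4 FPKM in WT, and TG2, TG3 and TG5 were above every WT mouse. *Edem2* ranged from 17.8 to 27.8 FPKM in HSD17B1TG and from 15.0 to 21.6 FPKM in WT. The ligase itself, *Syvn1*, ranged from 16.6 to 22.02 and from 14.9 to 22.2 FPKM and had a log2 fold change of 0.044 (95% interval -0.25 to 0.34). *Herpud1*, a scaffold of the ligase complex, had its lowest and highest mice both in WT, WT2 at 15.52 and WT4 at 33.1 FPKM, with all HSD17B1TG mice between them. *Herpud1*, *Edem1*, *Selenos*, *Derl1* and *Derl2* had log2 fold changes between -0.0092 and 0.18, each with an interval within 2-fold.

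*Derl3*, the derlin of secretory cells such as plasma cells, differed in its pattern. It stood at 0.727, 1.47, 1.92, 1.93 and 1.29 FPKM in HSD17B1TG and at 5.92, 2.01, 0.840, 0.607 and 1.98 FPKM in WT. WT1 was far above the other WT mice, and without it the log2 fold change went from -0.64 ± 0.57 (SE, 95% interval -1.90 to 0.63, adjusted p = 0.519) to 0.077. The summed FPKM of 8 plasma cell markers ranged from 48.9 to 225 in HSD17B1TG and from 25.98 to 318 in WT (exact permutation test, two-sided, p = 0.754). WT4, the lowest mouse in *Derl3*, was also the lowest in that sum, whereas WT1 stood at 145 in it, and the part of plasma cells in *Derl3* was not tested.

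Of the translocation genes, *Sec61b*, a subunit of the channel into the ER, stood at 89.4, 119, 123, 83.3 and 158 FPKM in HSD17B1TG and at 104, 88.8, 76.8, 119 and 80.7 FPKM in WT. TG5 was the highest mouse, and the log2 fold change was 0.28 ± 0.20 (SE, 95% interval -0.15 to 0.72, adjusted p = 0.388). *Ssr1*, of the translocon-associated protein complex, ranged from 14.4 to 29.9 FPKM in HSD17B1TG and from 19.98 to 29.1 FPKM in WT, with a log2 fold change of -0.14 (95% interval -0.58 to 0.29).

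Leaving out 1 mouse moved many of these fold changes by more than 1.5 times, and the ranges of the genes whose sign turned are given in the closing observations. Without TG3 and without TG4, respectively, the log2 fold change was -0.45 and -0.12 for *Hsp90b1*, -0.23 and -0.0077 for *P4hb*, -0.43 and -0.18 for *Txndc5*, -0.20 and -0.044 for *Canx* and -0.29 and -0.022 for *Ssr1*. For *Xbp1* it was -0.29 without WT2 and -0.034 without TG4. Without WT2 it was 0.15 for *Dnajb9*, 0.16 for *Sel1l*, 0.14 for *Edem2*, 0.087 for *Derl2*, 0.023 for *Derl1*, 0.054 for *Eif2ak3* and 0.083 for *Ddit3*. Without WT5 it was 0.44 for *Ddit3*, without TG1 0.23 for *Eif2ak3*, without WT4 0.19 for *Derl1*, and without TG5 0.14 for *Sec61b*. None of the 34 genes passed an adjusted p under 0.05 in any of these fits.

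In order of level in WT, *Calr* led at 359.5 FPKM, followed by *P4hb* at 279, *Pdia3* at 246, *Hspa5* at 243 and *Hsp90b1* at 174 FPKM. *Calr* and *P4hb* differed by more than the larger of their SDs, as did *P4hb* and *Pdia3*, whereas *Pdia3* and *Hspa5* did not. *Hspa5* again exceeded *Hsp90b1* by more than that. From *Pdia6* at 111 FPKM down to *Dnajb9* at 24.6, each gene lay within the SD of the next. The sensors were low, from *Ern1* at 9.59 to *Eif2ak3* at 6.11 FPKM, and *Derl3* at 2.27 and *Trib3* at 1.15 FPKM closed the order.

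The folding genes varied widely among mice of 1 genotype. Deviations were taken on the log2 CPM scale (counts relative to library size after TMM scaling) as each mouse minus the mean of the 10 mice, and the median was formed over the 16 folding genes (chaperones, isomerases, lectin chaperones, *Manf* and *Creld2*). In HSD17B1TG this median was -0.44 in TG1, 0.32 in TG2, 0.53 in TG3, -0.70 in TG4 and 0.031 in TG5. In WT it was 0.37 in WT1, -0.30 in WT2, -0.098 in WT3, 0.22 in WT4 and 0.10 in WT5. The HSD17B1TG mice thus held both the highest and the lowest median.

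TG4 was the lowest of the 10 mice in 13 of the 16 folding genes and in 16 of all 34, while WT2 was the lowest in 13 of the 34. TG3 was the highest mouse in 10 of the 16 folding genes. The median deviation over all genes tested was between -0.0025 and 0.023 in every mouse. The TMM scaling itself holds that median near 0, so it does not measure how far other genes varied. The 34 genes together took 0.527% of the counts in TG4 and 1.12% in TG3, and 0.778% to 1.047% in WT. Mitochondrial shares beside these were 5.74% in TG1, 1.94% in TG2, 2.49% in TG3, 6.87% in TG4 and 7.57% in TG5. TG1 and TG4, with low folding genes, thus had higher shares than TG2 and TG3, with high ones, and TG5 had the highest share with folding genes near the mean. Among WT mice, WT1 had the highest folding median and the lowest share, 2.58%. WT4, with the next highest median, had the highest WT share, 3.37%, and WT2, with the lowest median, had 3.04%. The SD on the log2(FPKM + 1) scale was larger in HSD17B1TG than in WT for 20 of the 34 genes (58.8%), close to the 59.7% of all genes. Its median over the 34 genes was 0.348 in HSD17B1TG and 0.287 in WT, beside 0.287 and 0.245 over all genes tested. By role, the SD was larger in HSD17B1TG for 5 of 5 isomerases, 6 of 7 HSP70 and HSP90 class genes and 2 of 2 lectin chaperones. The same held for 2 of 2 translocation genes and for 1 of *Manf* and *Creld2*. It was larger for 1 of 3 sensors, 3 of 9 degradation genes and 0 of 4 transcription factors and effectors.

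**Figure D3:**
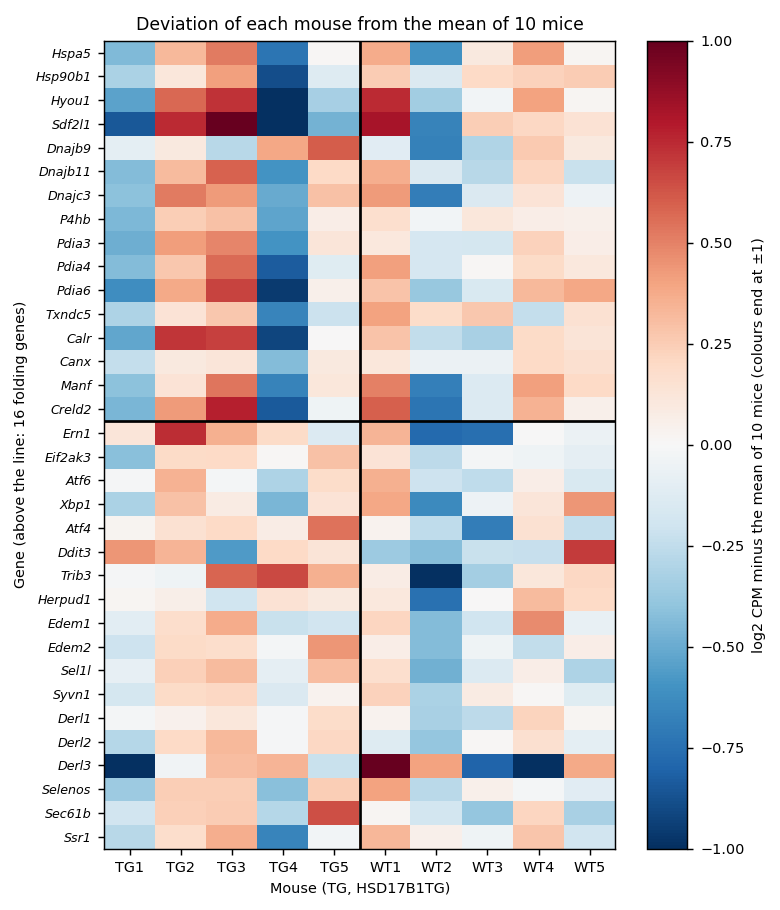
Log2 CPM minus the mean of 10 mice (colour, red above and blue below the mean) for 34 genes (rows, with 16 folding genes above the line) and 10 mice (columns). TG1, TG4 and WT2 are blue and TG2, TG3, WT1, WT4 and WT5 red in at least 14 of the 16 folding genes. *Dnajb9* breaks the pattern in TG3, TG4 and WT1.

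The genes closest to *Hspa5* across mice were found by correlation of log2 CPM over the 10 mice, a comparison chosen after the values had been seen. Pearson r with *Hspa5* was above 0.8 for 18 of the other 33 genes (54.5%), against 0.53% of the 16992 other genes tested. *Creld2* was the closest (Pearson r = 0.97, permutation p = 3e-05, and Spearman rho = 0.93, permutation p = 0.00032), and no other gene tested had a higher r. It was followed by *Manf* (Pearson r = 0.96, permutation p = 0.00013, and Spearman rho = 0.92, permutation p = 0.00062) and *Sdf2l1* (Pearson r = 0.93, permutation p = 0.00011, and Spearman rho = 0.92, permutation p = 0.00044). *Hyou1*, *Pdia6*, *Pdia4* and *Dnajc3* had Pearson r of 0.92, 0.92, 0.92 and 0.91. Over the 18 genes, Spearman rho ran from 0.54 for *Xbp1* to 0.94 for *Pdia4*, and the unadjusted permutation p of Pearson r was at most 0.00501. Adjusted over the 16992 genes, the smallest Pearson p was 0.316. The permutations can give a p no smaller than 1e-05, which for 1 gene alone would be 0.17 after adjustment, so the correction could not be passed by a single relation. At an unadjusted permutation p under 0.05, 20 of the 33 genes passed, against 7.05% of all genes.

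The genes with r above 0.8 were unevenly spread over the roles. Of the 15 other folding genes, 13 had r above 0.8, the exceptions being *Txndc5* at 0.57 and *Dnajb9* at 0.07. Of the 18 remaining genes, 5 did, namely *Syvn1* at 0.86, *Selenos* at 0.85, *Edem1* at 0.83, *Ssr1* at 0.82 and *Xbp1* at 0.82. The genes of the ATF4 branch did not, with *Trib3* at 0.32, *Atf4* at 0.19 and *Ddit3* at -0.30, or -0.68 without TG4 and WT2. Without TG4 and WT2, the mice farthest from the median in *Hspa5*, 14 genes had r above 0.8, and *Creld2* had 0.94. *Xbp1* then had 0.56, so that its relation rested on those mice. After the genotype means were subtracted, 20 genes had r above 0.8.

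**Figure D4:**
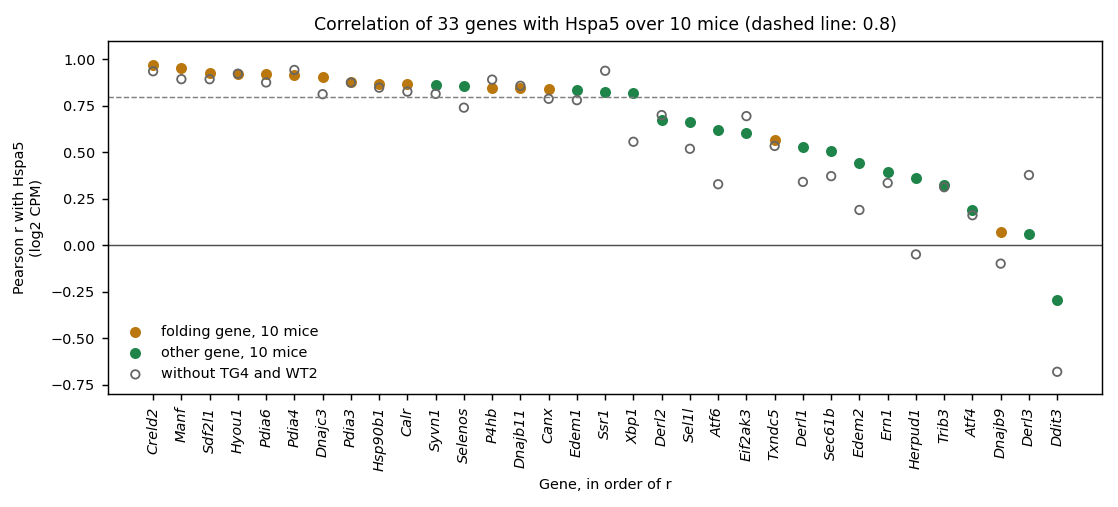
Pearson r with *Hspa5* over 10 mice (y axis) for 33 genes in order of r (x axis), with filled points for all 10 mice and open points without TG4 and WT2. Folding genes crowd above the dashed line at 0.8, and *Ddit3* lies lowest, at -0.30 with all mice and at -0.68 without TG4 and WT2.

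Of the 90 genes with r above 0.8 among all genes tested, 18 (20%) belonged to the genes described here and 13 (14.4%) to the lists of other ER genes. Those 13 were 7.1% of the 183 genes of these lists. Of the 8 genes with an ERSE other than *Hspa5* itself, 7 had r above 0.8, the exception being *Derl3* at 0.06. Of the 21 genes with a window and no ERSE match, 9 did, among them the folding genes *Sdf2l1*, *Pdia4*, *Pdia3*, *P4hb* and *Dnajb11*. Of the 8 genes with an ERSE, all but *Derl3* and *Syvn1* were folding genes, and the part of role in this contrast was not tested. Of the 13 tested genes outside the group with an ERSE match in their window, 0 had r above 0.8.

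Summed markers of 9 cell types, the mitochondrial share and the total count were set against *Hspa5* in the same way, 11 relations in all. The mitochondrial share had the largest correlation (Pearson r = -0.61, permutation p = 0.061, and Spearman rho = -0.56, permutation p = 0.0973), with an adjusted p of 0.474 and an r of -0.70 without TG4 and WT2. The epithelial sum had r = 0.29 (permutation p = 0.41, Spearman rho = 0.22, permutation p = 0.537) and the plasma cell sum r = -0.05 (permutation p = 0.888, Spearman rho = -0.0061, permutation p = 1). The neutrophil sum had r = -0.55 (permutation p = 0.104, Spearman rho = -0.56, permutation p = 0.0956), the macrophage sum r = -0.47 (permutation p = 0.172, Spearman rho = -0.47, permutation p = 0.181) and the total count r = 0.50 (permutation p = 0.147, Spearman rho = 0.50, permutation p = 0.144). Without TG4 and WT2, r was 0.51 for the epithelial sum, -0.07 for the plasma cell sum, -0.57 for neutrophils, -0.68 for macrophages and 0.23 for the total count. None of the 11 passed the correction.

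Other genes of the ER were compared through 6 lists. In the list of other ER folding genes, 2 of 38 genes tested were higher and 7 lower in HSD17B1TG at an adjusted p under 0.05, against 3.34% and 2.81% of all genes, and the list median was -0.17. *Qsox1*, a sulfhydryl oxidase of the secretory pathway, rose from 28.2, 13.1, 25.0, 35.7 and 19.0 FPKM in WT to 40.8, 64.1, 66.8, 51.1 and 96.5 FPKM in HSD17B1TG, and the genotypes did not overlap. Its log2 fold change was 1.40 ± 0.30 (SE, 95% interval 0.74 to 2.05, adjusted p = 0.0303). *Ero1l*, the oxidase that recharges the isomerases, rose as well, with a log2 fold change of 0.83 ± 0.20 (SE, 95% interval 0.38 to 1.28, adjusted p = 0.0429). Beside these rises, 9 of the 10 epithelial markers had a positive log2 fold change, with a median of 1.24 over the list, but 0 had an adjusted p under 0.05. Their summed FPKM had medians of 2307 in HSD17B1TG and 808 in WT (exact permutation test, two-sided, p = 0.0556). The part of the epithelium in these rises was not tested.

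The 7 that fell were *Rcn1*, *Serpinh1*, *Fkbp14*, *Fkbp9*, *Fkbp7*, *Dnajc10* and *Calu*. *Serpinh1* encodes HSP47, the collagen chaperone, *Rcn1* and *Calu* are calcium-binding proteins of the lumen, and the Fkbp genes encode ER prolyl isomerases. *Rcn1* stood at 37.6, 27.9, 29.0, 23.5 and 26.4 FPKM in HSD17B1TG and at 54.0, 80.2, 123, 44.1 and 70.4 FPKM in WT, with a log2 fold change of -1.37 ± 0.27 (SE, 95% interval -1.96 to -0.79, adjusted p = 0.0239). *Serpinh1* stood at 309.9, 193, 221, 125.5 and 85.5 FPKM in HSD17B1TG and at 434, 402, 427, 354 and 518 FPKM in WT, with a log2 fold change of -1.20 ± 0.31 (SE, 95% interval -1.88 to -0.52, adjusted p = 0.0471). Every HSD17B1TG mouse was below every WT mouse in both. *Dnajc10* had a log2 fold change of -0.72 ± 0.17 (SE, 95% interval -1.10 to -0.35, adjusted p = 0.038). Beside these, 5 of the 9 stromal markers were lower and 0 higher in HSD17B1TG at an adjusted p under 0.05, and their summed FPKM had medians of 1034 in HSD17B1TG and 2014 in WT (exact permutation test, two-sided, p = 0.0397). The part of the stroma in these falls was not tested.

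Of 29 ER to Golgi transport genes, 2 fell and 0 rose at an adjusted p under 0.05, against 2.81% lower and 3.34% higher among all genes. *Kdelr3*, a receptor that returns chaperones to the ER, stood at 15.8, 15.0, 23.0, 7.47 and 13.7 FPKM in HSD17B1TG and 42.6, 62.4, 50.5, 29.8 and 46.1 FPKM in WT, without overlap, and had a log2 fold change of -1.64 ± 0.28 (SE, 95% interval -2.26 to -1.02, adjusted p = 0.0198). *Ergic1*, of the intermediate compartment, had a log2 fold change of -0.72 ± 0.17 (SE, 95% interval -1.09 to -0.35, adjusted p = 0.0381), and *Sar1a*, the GTPase of the COPII coat, did not pass by edgeR, with a log2 fold change of -0.31 ± 0.11 (SE, 95% interval -0.54 to -0.075, adjusted p = 0.0976). Of 32 ATF4 targets, 1 rose and 1 fell, shares near those of all genes. *Stc2*, a secreted glycoprotein, rose, with a log2 fold change of 1.70 ± 0.38 (SE, 95% interval 0.87 to 2.53, adjusted p = 0.0337), and *Phgdh*, the first enzyme of serine synthesis, fell, with a log2 fold change of -2.57 ± 0.51 (SE, 95% interval -3.69 to -1.44, adjusted p = 0.0256). *Atf3*, a stress-induced transcription factor, did not pass by edgeR, with a log2 fold change of 2.003 ± 0.54 (SE, 95% interval 0.81 to 3.19, adjusted p = 0.0522). DESeq2 gave *Sar1a* an adjusted p of 0.0214 and *Atf3* one of 0.00295.

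By edgeR, no gene passed among 25 other degradation genes, 33 genes of the translocon, signal peptidase and oligosaccharyltransferase, and 26 other sensors and regulators. At an unadjusted p under 0.05, 4 of the 25, 0 of the 33 and 9 of the 26 did, against 26.1% of all genes. The smallest p-value of each list belonged to *Ube2j1*, *Sec62* and *Wfs1*. *Ube2j1*, a ubiquitin-conjugating enzyme, had a log2 fold change of -0.38 ± 0.12 (SE, 95% interval -0.65 to -0.11, adjusted p = 0.0816). *Sec62*, a translocon component, had a log2 fold change of -0.25 ± 0.13 (SE, 95% interval -0.53 to 0.027, adjusted p = 0.234). *Wfs1*, wolframin of the ER membrane, had a log2 fold change of 1.52 ± 0.40 (SE, 95% interval 0.63 to 2.41, adjusted p = 0.0506). *Aup1* and *Erlin1* of degradation had log2 fold changes of 0.33 (95% interval 0.084 to 0.58) and -0.54 (95% interval -1.05 to -0.042), *Dad1* and *Sec11c* of the translocon list 0.35 (95% interval -0.040 to 0.75) and 0.38 (95% interval -0.059 to 0.82), and *Mbtps1* and *Creb3l1* of the regulators -0.49 (95% interval -0.79 to -0.19) and -0.86 (95% interval -1.39 to -0.32). DESeq2 gave *Wfs1* an adjusted p of 0.00534, *Mbtps1* 0.0162 and *Creb3l1* 0.0207.

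The 13 calls at an adjusted p under 0.05 in these lists depended on single mice. Without TG2, TG5 or WT2, 0 of the 13 passed, and without TG4 or WT5 1, without WT3 2, without WT1 3 and without TG3 10 did. All 13 passed without TG1 or without WT4. Over all genes, 1046 passed with every mouse and 128, 76 and 108 without TG2, TG5 and WT2. The fold changes of the 13 kept their sign, with log2 values of 1.201 to 1.58 for *Qsox1*, -1.86 to -1.46 for *Kdelr3* and -1.45 to -1.01 for *Serpinh1*. *Kdelr3* passed in 7 of the 10 fits, the most of any, with adjusted p-values of 0.00604 to 0.0542.

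**Figure D5:**
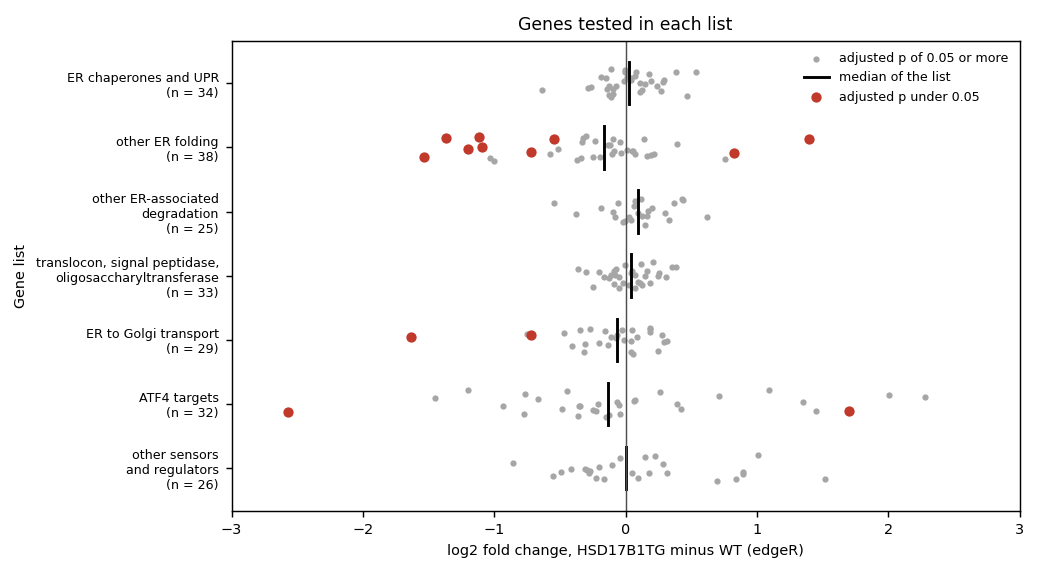
Log2 fold change (x axis, HSD17B1TG minus WT) of every gene tested (points) in 7 lists (y axis, n in parentheses), with red points for an adjusted p under 0.05 by edgeR and bars for the list median. The ER chaperones and genes of the unfolded protein response (UPR) crowd around 0 with no red point, and the red points of other ER folding genes lie mostly to the left.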

How the data were processed

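RNA of whole uterus from 10 females (5 HSD17B1TG, 5 WT; 4 months) gave paired-end 150 bp libraries. Reads were aligned by the authors with HISAT2 2.0.5 to GRCm38 with the Ensembl 94 annotation and 1 table of raw counts per gene and mouse was deposited. The deposited FPKM are the counts divided by gene length and by a term proportional to DESeq2's size factor, not by each library's own total, so they compare genes per length and mice after size-factor scaling. How reads were counted, and with what strand setting, is not given in the sources used here, so reads of the 14 genes that overlap another gene are uncertain. The authors' fold changes, p-values and enrichment tables were not used.

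Groups follow the genotype in the labels. Counts were filtered with filterByExpr, scaled by TMM and tested with edgeR 4.0.16 in R 4.3.3 (quasi-likelihood test, Benjamini-Hochberg over 16993 genes), with the thresholds of the study. Standard errors were derived from the F statistic and intervals are at 95%. Log2 CPM use a prior count of 2. Single values were compared with two-sided exact permutation tests over 252 assignments (smallest p 0.00794), and correlations with 100000 permutations. Alternatives used DESeq2 1.42.0 and limma 3.58.1. The code was tested on simulated counts. Total counts were 14817228 to 23271988, and a count of 3 in the shallowest library is 0.202 CPM, counting error only. The labels name no batch.

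The genes, roles, lists and motifs were chosen with earlier results of these data known. All 35 genes are named, with the 3 smallest p-values of each other list. The further genes that passed in those lists, *Serpinh1*, *Ero1l*, *Calu* and the Fkbp genes, were named after their values were seen. All 34 genes have the coordinates of GENCODE M21. For 27 of 30 genes with a promoter window, bases after the start were found in the first 600 bases of a GENCODE transcript, the exceptions being *Dnajc3*, *Pdia4* and *Trib3*. Protein sequences were not used here.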

Additional observations from a re-analysis of the deposited data

Results flagged for a closer look

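In 3 of 68 groups of 5 mice checked, 1 mouse stood apart by a Dixon gap above 0.71 of the range, and chance alone marks about 1 in 20 groups. WT2 had 138.5 FPKM of *Hsp90b1*, below the other WT mice, and its gap was 0.785 of the WT range. WT5 had 17.0 FPKM of *Ddit3*, above the other WT mice, with a gap of 0.859. WT1 had 5.92 FPKM of *Derl3*, above the other WT mice, with a gap of 0.736.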

How the results depend on the processing

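In each of the alternatives run (DESeq2, other size factors, other filters, limma with voom weights or on log2 FPKM, and each mouse left out in turn), 0 of the 34 genes were called or had an adjusted p under 0.05. The lowest adjusted p of any was 0.0604, for *Ern1* with voom weights, where 3 of the 34 genes had an unadjusted p under 0.05. The count of genes with r above 0.8 with *Hspa5* stayed within 1.5 times 18 in every alternative. No paired analysis was possible because the replicate numbers were given in order, and the labels carry animal numbers without saying whether they mark a litter, a batch or a pairing. Over all genes, the calls with a mouse left out ranged from 38 up and 27 down without TG5, or 38 up and 56 down without WT2, to 888 up and 666 down without WT4, beside 367 and 354 with all mice, while DESeq2 gave 923 and 674 and voom weights 1083 and 665. The largest shift of the median of all genes was to -0.084, with upper-quartile scaling. Among the named genes of the other lists, 87 results with a mouse left out lost and 7 gained an adjusted p under 0.05, of 240 in all. Only the 13 genes that passed with all mice could lose it, and only the remaining genes could gain it.

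Signs turned only in genes whose interval includes 0, and the cause was not tested. With voom weights the log2 fold changes that turned were *Hspa5* 0.10, *Sdf2l1* 0.091, *Pdia6* 0.032, *Manf* 0.055, *Creld2* 0.20, *Xbp1* 0.069, *Edem1* 0.16 and *Selenos* 0.083. With upper-quartile scaling they were *Dnajb11* -0.015, *Pdia3* -0.052, *Atf6* -0.015, *Herpud1* -0.071 and *Syvn1* -0.044, with no filter *Pdia3* -0.0020 and *Herpud1* -0.031, and with CPM over 1 in at least 5 mice *Herpud1* -0.010. On log2(FPKM + 1), in limma and the exact permutation test, they were *Pdia3* -0.014, *Calr* -0.0065 and *Edem1* 0.0099, and on log2(FPKM + 0.1) *Pdia3* -0.014, *Calr* -0.0068 and *Edem1* 0.012. With each mouse left out, the log2 fold changes ranged from -0.28 to 0.044 for *Hspa5*, from -0.46 to 0.0052 for *Hyou1*, from -0.50 to 0.14 for *Sdf2l1*, from -0.11 to 0.21 for *Dnajb11*, from -0.0067 to 0.27 for *Dnajc3*, from -0.12 to 0.17 for *Pdia3*, from -0.37 to 0.00085 for *Pdia4*, from -0.34 to 0.073 for *Pdia6*, from -0.10 to 0.28 for *Calr*, from -0.31 to 0.016 for *Manf*, from -0.27 to 0.16 for *Creld2*, from -0.0087 to 0.16 for *Atf6*, from -0.16 to 0.10 for *Herpud1*, from -0.14 to 0.13 for *Edem1*, from -0.048 to 0.093 for *Syvn1*, from -0.88 to 0.077 for *Derl3* and from -0.10 to 0.090 for *Selenos*. The intervals give the precision that 5 mice per genotype allow, and the low counts of *Trib3* and *Derl3* limit both.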
